A study of Mus musculus with 10 samples.

Results

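Distal sites that were accessible in activated neural stem and progenitor cells (NSPCs), had no peak in quiescent NSPCs and had a peak again once quiescent cells were returned to the activated state are described here, and are called reopened distal sites. They were chosen by the presence of ATAC-seq peaks. Peaks of all 6 ATAC-seq lists on chromosomes 1 to 19 that overlapped or abutted were merged into 105302 sites. A reopened distal site had a peak in both activated and both reactivated libraries and in neither quiescent library, and did not overlap the 1 kb on either side of any annotated transcription start site (TSS). There were 3431 such sites among 78446 distal sites. The number was 6590 without activated library 2 and 2208 with lists of equal length, each limited to its 46071 strongest peaks. The same pattern of peaks was found at 4134 of all merged sites, or 3.93%, and at 4.37% of the distal sites. Since the peaks set these counts, they are a description and were not tested.

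All libraries were made from primary NSPCs of C57BL/6 mice at postnatal day 5, with 2 ATAC-seq libraries per state. The medium of activated cells held FGF2 and EGF at 20 ng/ml. In that of quiescent cells FGF2 was kept at 20 ng/ml, EGF was left out and BMP4 was added at 25 ng/ml, for 4 days according to the labels, whereas the methods give a shorter time before ATAC-seq. Reactivated cells spent 4 days in that medium and 9 to 12 days back in the activating medium. H3K4me3 was profiled by ChIP-seq in 1 quiescent and 1 activated library, and not in reactivated cells. All states are cultures outside the niche of the brain. Quiescence differed from activation by 2 changes in the medium, the BMP4 added and the EGF withdrawn. By the methods, quiescent cells were also collected after a longer time in culture from seeding. The effects of these differences cannot be told apart.

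In ATAC-seq, a transposase inserts adapters into accessible DNA, so that reads pile up at promoters and at distal regulatory elements such as enhancers. Distal elements are the more cell state-dependent of these. In neural progenitors, many enhancers carry the E-box, a short element bound by basic helix-loop-helix (bHLH) transcription factors. CAGCTG is its palindromic form. BMP signalling acts against such factors through the Id proteins, which pair with bHLH partners and keep them from DNA. AP-1 (TGANTCA) and SOX factors (ACAATG) bind further elements of active progenitor enhancers, and NFI factors (TTGGC) are known for binding in quiescent neural stem cells. All of this is background and was not measured here.

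Sequences of 4 of the 5 strongest reopened distal sites are shown first. All 5 held at least 1 palindromic E-box. Strength was the percentile of fold enrichment within each list, averaged over the activated and reactivated libraries. The 200 bp around the median summit are given on the plus strand of GRCm38.p6 (mm10), from the genome of NCBI RefSeq, and capitals mark CAGCTG. The name is that of the nearest protein-coding gene, which may not be the target.
Cwc22 (chr2:78189641-78189840): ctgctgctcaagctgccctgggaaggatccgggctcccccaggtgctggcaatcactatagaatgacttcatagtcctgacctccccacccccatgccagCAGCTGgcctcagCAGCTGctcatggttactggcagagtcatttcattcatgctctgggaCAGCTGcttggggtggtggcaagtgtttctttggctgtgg
Aig1 (chr10:13714678-13714877): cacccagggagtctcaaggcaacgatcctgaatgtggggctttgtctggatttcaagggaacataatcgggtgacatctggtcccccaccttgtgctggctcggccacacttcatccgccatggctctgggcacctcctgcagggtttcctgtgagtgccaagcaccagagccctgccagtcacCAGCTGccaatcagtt
Gsdmc (chr15:63036330-63036529): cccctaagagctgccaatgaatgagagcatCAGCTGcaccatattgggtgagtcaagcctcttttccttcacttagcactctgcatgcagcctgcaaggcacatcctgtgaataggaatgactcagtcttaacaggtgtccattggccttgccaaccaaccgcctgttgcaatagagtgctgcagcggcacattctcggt
Gm5148 (chr3:37897061-37897260): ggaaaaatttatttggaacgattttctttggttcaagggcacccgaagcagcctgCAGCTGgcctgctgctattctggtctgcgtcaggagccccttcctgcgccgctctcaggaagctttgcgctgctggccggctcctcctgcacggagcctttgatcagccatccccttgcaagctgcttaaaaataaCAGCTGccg

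The site named for Cwc22 lay in an annotated intron, 243366 bp upstream of the TSS of Cwc22, and held 3 palindromic E-boxes within 100 bp of the summit. Its fold enrichment was 13.4 and 11.7 in the activated libraries and 18.2 and 17.5 in the reactivated libraries. The intronic site named for Aig1 had 13.4 and 11.0 in activated against 17.6 and 18.2 in reactivated cells. The intergenic site named for Gsdmc had 12.1 and 13.0 against 16.3 and 15.3, and held 2 AP-1 motifs beside its E-box. In these sites both reactivated values exceeded both activated values. Of the 10 strongest sites, 8 held CAGCTG within 100 bp of the summit and those named for Mdfic and Gm10181 did not.

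Next are 3 sites from the 5 with the most palindromic E-boxes in the same window, the stronger ones where numbers tied, which show how densely the element can occur.
Olfml2b (chr1:170655650-170655849): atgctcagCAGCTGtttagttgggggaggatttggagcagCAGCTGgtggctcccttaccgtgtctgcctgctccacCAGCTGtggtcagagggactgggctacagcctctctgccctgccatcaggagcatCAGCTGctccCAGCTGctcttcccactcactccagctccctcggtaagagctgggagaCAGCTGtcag
Sash1 (chr10:8804400-8804599): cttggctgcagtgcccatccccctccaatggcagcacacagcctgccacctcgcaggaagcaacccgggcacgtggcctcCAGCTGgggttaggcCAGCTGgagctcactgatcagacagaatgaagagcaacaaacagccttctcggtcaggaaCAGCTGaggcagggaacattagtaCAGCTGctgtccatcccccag
4931440F15Rik (chr11:29774412-29774611): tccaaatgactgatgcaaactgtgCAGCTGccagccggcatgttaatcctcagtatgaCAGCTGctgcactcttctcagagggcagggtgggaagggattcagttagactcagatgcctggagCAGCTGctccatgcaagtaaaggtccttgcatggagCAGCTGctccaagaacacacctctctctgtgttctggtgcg

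The site named for Olfml2b, in an intron 11218 bp downstream of its TSS, held 6 matches and had fold enrichments of 8.95 and 7.70 in activated and 10.4 and 8.89 in reactivated cells. The site named for Sash1 held 4 matches, with 6.54 and 6.51 against 8.11 and 6.56. The site named for 4931440F15Rik also held 4, with 4.51 and 5.42 against 7.37 and 9.58. The activated and reactivated values overlapped at the Olfml2b site and not at the others.

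The last set shows sites near genes with a known role in oligodendrocyte development, the cell cycle and stem cell identity.
Zfp488 (chr14:33974856-33975055): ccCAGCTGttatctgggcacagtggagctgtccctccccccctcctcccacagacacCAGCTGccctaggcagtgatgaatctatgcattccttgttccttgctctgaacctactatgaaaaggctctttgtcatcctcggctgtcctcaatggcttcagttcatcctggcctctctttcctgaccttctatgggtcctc
E2f1 (chr2:154577454-154577653): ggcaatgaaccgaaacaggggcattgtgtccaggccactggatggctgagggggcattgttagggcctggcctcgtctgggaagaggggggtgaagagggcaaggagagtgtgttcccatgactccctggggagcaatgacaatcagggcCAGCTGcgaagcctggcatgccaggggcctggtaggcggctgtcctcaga
Sox2 (chr3:34659890-34660089): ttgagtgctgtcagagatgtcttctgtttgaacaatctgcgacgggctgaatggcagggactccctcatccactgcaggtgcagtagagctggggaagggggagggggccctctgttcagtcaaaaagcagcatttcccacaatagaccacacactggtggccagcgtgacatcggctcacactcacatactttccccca

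The Zfp488 and E2f1 sites held the E-box, and the Sox2 site held no palindromic E-box, no AP-1 motif and no SOX motif. Their values are given with the gene lists.

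At the reopened distal sites, the peaks were of low to middle strength in activated cells and stronger in reactivated cells. Median fold enrichment was 4.50 (quartiles 3.58 and 5.70) in activated library 1 and 3.85 (3.28 and 4.71) in activated library 2. It was 6.64 (4.94 and 8.94) and 6.25 (4.75 and 8.51) in the reactivated libraries. Within each list, the median site stood at percentile 48.1 and 37.3 of all peaks of the activated libraries and at 68.2 and 65.1 of the reactivated ones. The reactivated lists were longer, so percentiles cannot be compared between the states. The highest single values were 14.8 and 13.0 in activated and 24.4 and 24.2 in reactivated cells. The median merged site was 435 bp wide.

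Across sites, the median log2 ratio of fold enrichment, reactivated over activated, was 0.59 (quartiles 0.26 and 0.91). The 4 pairings of 1 reactivated with 1 activated library gave medians of 0.53, 0.45, 0.72 and 0.66. Both reactivated values lay above both activated values at 2399 of 3431 sites (69.9%) and below both at 118 (3.44%). The same held for 78.8% of the 10286 distal sites with a peak in all 6 libraries, where the median log2 ratio was 0.64 with quartiles of 0.34 and 0.97. The higher values in reactivated cells were therefore not particular to the reopened sites. Fold enrichment was not normalized between libraries, and the reactivated lists held 103186 and 103783 peaks on these chromosomes against 46071 to 59108 in the others.

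**Figure D1:**
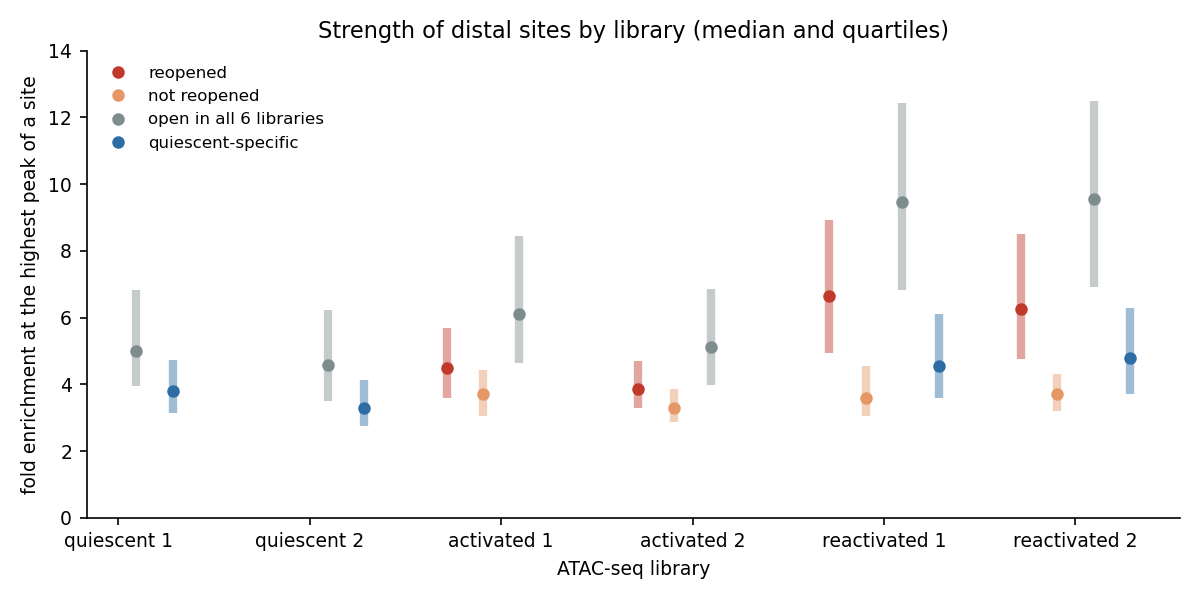
Fold enrichment of the highest peak of each distal site (y axis) in the 6 ATAC-seq libraries (x axis), as the median (points) and the quartiles (bars) of the sites with a peak, for 4 classes of site. Reopened sites have no point in the quiescent libraries, and their medians of 4.50, 3.85, 6.64 and 6.25 lie below those of sites open in all 6 libraries.

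Background pileup, which grows with depth, was alike in most libraries. As recovered from the lists, it was 6.01 to 6.61 in 5 libraries and 12.1 in quiescent library 2. At that background, the weakest peaks called had a fold enrichment of 2.36 in quiescent library 1 and 1.99 in quiescent library 2, so a weaker signal in quiescent cells was not detectable and absence of a peak is not absence of accessibility. At 603 of the 3431 sites (17.6%), even the lowest of the 4 values was at least 2 times the higher of these limits. In bulk cultures, fewer cells with an open site and less opening per cell cannot be told apart. Of the promoters of 6 NSPC marker genes, 6 had a peak in every library. Promoters of markers of other cell types were open in 3 to 4 of 5 (neuron), 1 to 2 of 5 (microglia), 0 to 2 of 5 (endothelium) and 0 to 1 of 4 (mature oligodendrocyte) in each library, and those of Stmn2, Mog, Mobp, Mag, Csf1r, Aif1, Cldn5, Cdh5 and Tie1 had no peak in any.

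Of the 3746 distal sites specific to activated over quiescent cells, 3431 had a peak in both reactivated libraries, or 91.6% (exact Clopper-Pearson 95% interval 90.7 to 92.5, for counting error only). A further 231 had a peak in 1 reactivated library and 84 in none. The share was 93.2% (91.2 to 94.9) of the 754 activated-specific sites at promoters and 98.0% of the 10501 distal sites open in both quiescent and both activated libraries. By comparison, 55.6% of all distal sites and 53.5% (52.2 to 54.7) of the 5983 quiescent-specific distal sites, open in both quiescent and no activated library, had a peak in both reactivated lists. The share depended on the length of the lists. With each list limited to its 46071 strongest peaks, 56.2% of activated-specific distal sites were open in both reactivated libraries, against 39.6% of all distal sites.

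The share was higher among stronger sites. Ranked by their mean percentile in the activated libraries, 83.0% (80.5 to 85.4) of the lowest quartile, 90.7% (88.7 to 92.5) of the second, 94.8% (93.1 to 96.1) of the third and 97.9% (96.7 to 98.7) of the highest had a peak in both reactivated libraries. The 315 sites that did not reopen had median fold enrichments of 3.71 and 3.28 in the activated libraries, and a median width of 285 bp.

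**Figure D2:**
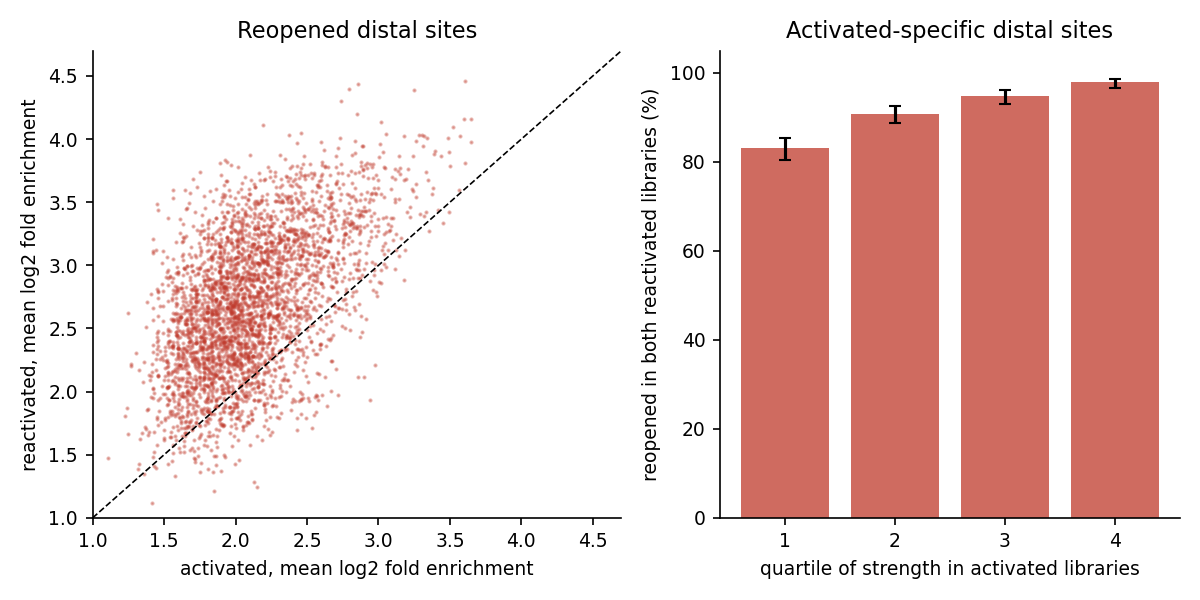
Left, mean log2 fold enrichment of each of the 3431 reopened distal sites in the activated (x axis) and the reactivated libraries (y axis), with the line of equal values dashed. Right, share of the 3746 activated-specific distal sites with a peak in both reactivated libraries, by quartile of their strength in activated cells, with exact 95% intervals. The share goes from 83.0% to 97.9%, and most points on the left lie above the line.

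Sites were ranked by the difference of percentile, reactivated minus activated, a difference that also moves with the length of the lists. The highest were intronic sites named for Spon1, Zc3h12c and Erc2, with log2 ratios of fold enrichment of 1.98, 2.03 and 1.97. The Zc3h12c site had fold enrichments of 2.39 and 3.14 in activated and 12.8 and 9.84 in reactivated cells. The Spon1 site had 2.65 and 2.85 against 12.7 and 9.31. The lowest were at sites named for Itga4, Arnt2 and Sparcl1. The Itga4 site, 41444 bp upstream of this integrin subunit gene, had 7.55 and 7.84 in activated and 4.38 and 3.34 in reactivated cells, a log2 ratio of -1.01. The site upstream of Sparcl1, which encodes a matrix protein made by astrocytes, had 3.83 and 5.16 against 2.40 and 2.34. In all of these both reactivated values lay on one side of both activated values. The sites had been selected for a large difference of percentile between the states, so this is no separate result.

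At the limits of the choice, the weakest site included, by mean −log10 q, was one named for Kcnh2, with fold enrichments of 2.65, 2.71, 2.94 and 2.66. The strongest distal site kept out by a peak in 1 quiescent library, named for Gm11232, had 3.21 in quiescent library 2, 18.1 and 15.4 in activated and 19.6 and 21.8 in reactivated cells. In all, 2502 distal sites had peaks in the activated and reactivated libraries and in 1 quiescent library, 912 in library 1 and 1590 in library 2. The median quiescent fold enrichment of these was 3.42 and 2.90. The included sites nearest to a TSS, named for Rcor2 and Tubb2a, ended 1001 and 1004 bp from it, and the excluded sites next to this limit, named for Pqlc1 and Map1b, both ended 996 bp from one. The nearest quiescent peak lay at a median of 13437 and 13102 bp from a reopened site in the 2 quiescent libraries, and within 1 kb of 219 and 235 sites.

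The sequence of the sites had no part in their choice, and among the motifs searched the palindromic E-box differed most, in percentage points, between them and the distal sites open in all 6 libraries or specific to quiescence. CAGCTG, which reads the same on both strands, occurred within 100 bp of the median summit at 1607 of 3431 reopened distal sites, or 46.8% (95% interval 45.2 to 48.5), against 9.65% of windows of the same length centred 1 kb to either side. Around the summits of each library in turn the share was 46.0% ± 0.542 (SD over 4 libraries), from 45.4% to 46.5%. It was 26.4% (25.6 to 27.3) at distal sites open in all 6 libraries, 14.8% (13.9 to 15.8) at quiescent-specific distal sites and 23.4% over all 78446 distal sites. The flanks of these classes held it in 8.21% to 9.29%. It was 38.4% (33.0 to 44.0) at activated-specific distal sites that did not reopen and 35.1% (31.6 to 38.8) at the 703 promoter sites with the same pattern of peaks. The intervals cover counting error only, and no enrichment test was run.

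The order of the classes was the same with shorter lists. With lists of equal length, the share was 49.8% at reopened, 42.4% at not reopened, 27.4% at constantly open and 14.4% at quiescent-specific distal sites. With peaks of a −log10 q of at least 10 it was 47.8%, 45.3%, 26.1% and 14.9%. Of the reopened sites found with the stricter peaks, 38.5% overlapped one found with all peaks, and 74.5% of those found with lists of equal length did. Mean GC content in the 200 bp was 52.2% ± 5.82 (SD over sites) at reopened and 53.0% ± 6.42 at constantly open sites. It was 49.1% ± 5.32 at quiescent-specific sites, while the flanks of all 3 classes were at 43.6% to 45.1%.

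**Figure D3:**
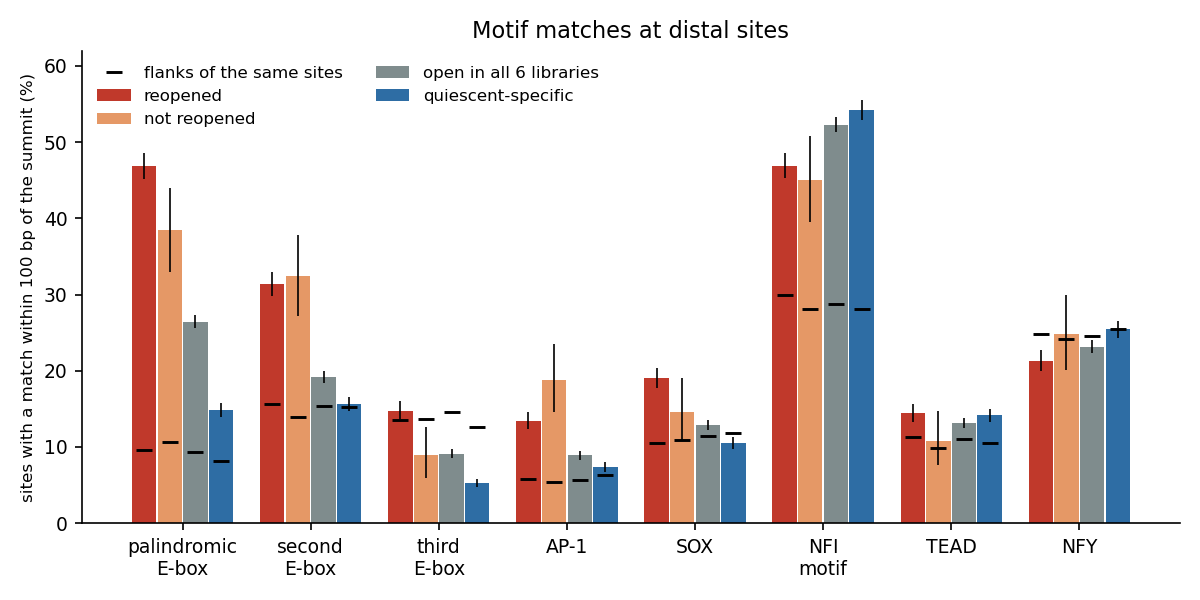
Share of distal sites with an exact motif match on either strand within 100 bp of the median summit (y axis), with exact 95% intervals, for 8 motifs (x axis) and 4 classes of site; black marks give the share in windows 1 kb to either side of the same sites. The palindromic E-box is CAGCTG, the second CAGATG and the third CAGGTG; at the palindromic E-box reopened sites stand at 46.8% and quiescent-specific sites at 14.8%.

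The E-boxes were centred on the summits. CAGCTG occurred 4.26 times per kb within 20 bp of the summit of reopened distal sites and 0.589 times per kb at 400 to 500 bp from it, a ratio of 7.24. The ratio was 5 at sites that did not reopen, 3.60 at constantly open and 2.11 at quiescent-specific distal sites. At least 2 matches within 100 bp were found at 417 reopened sites (12.2%), 32 sites that did not reopen (10.2%), 4.18% of constantly open sites and 1.24% of quiescent-specific sites.

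**Figure D4:**
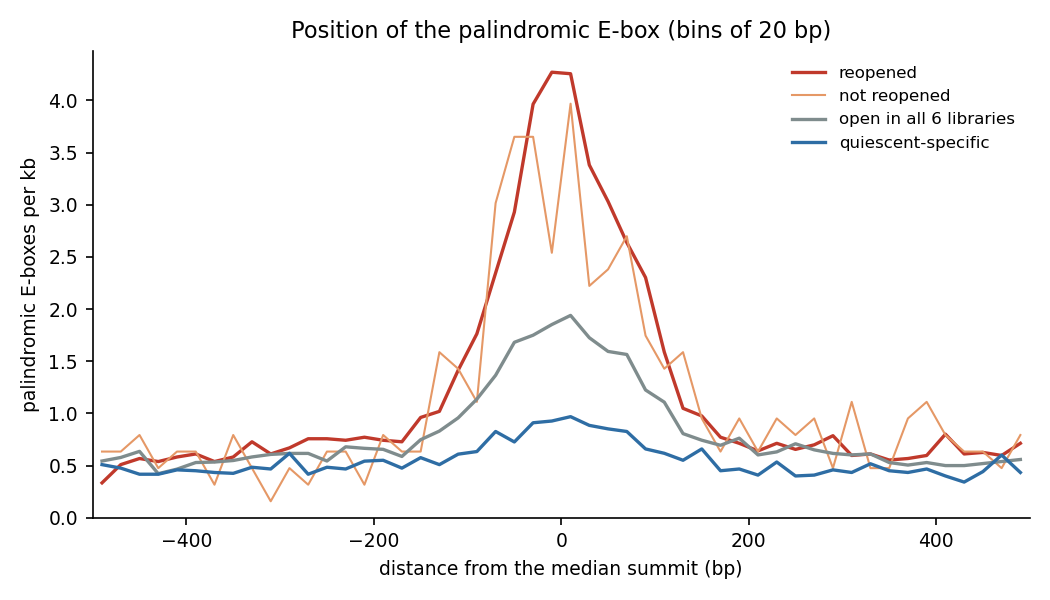
Density of CAGCTG, in matches per kb over bins of 20 bp (y axis), by distance from the median summit (x axis) for 4 classes of distal site. The density at reopened sites is 4.26 per kb near the summit, and all classes are at 0.450 to 0.651 per kb at 400 to 500 bp; the line of the 315 sites not reopened is uneven because they are few.

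The bases beside the E-box also differed in their shares. With both strands counted together, CCAGCTGC made up 21.6% and ACAGCTGC 18.2% of the 2093 matches at reopened sites, against 12.4% and 12.3% of the 967 matches at quiescent-specific sites. GCAGCTGA made up 7.64% at reopened and 13.96% at quiescent-specific sites. At constantly open sites, these 3 shares were 19.9%, 14.8% and 10.1%.

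All further motifs were searched on both strands, and were found over all distal sites at 19.9% (CAGATG), 8.85% (TGANTCA), 13.4% (ACAATG) and 46.2% (TTGGC). The second E-box, CAGATG, was found at 31.4% (29.9 to 33.0) of reopened distal sites, 32.4% (27.2 to 37.9) of those that did not reopen, 19.2% of constantly open and 15.6% of quiescent-specific sites, with 15.3% to 15.6% in the flanks of the first and the last 2 classes. CAGCTG or CAGATG was present at 2210 reopened sites (64.4%). The third E-box, CAGGTG, stood at 14.8%, near the 13.6% of the flanks, and below its flanks in the other classes, with 9.10% at constantly open and 5.26% at quiescent-specific sites. The AP-1 motif TGANTCA was found at 13.5% (12.3 to 14.7), against 8.90% and 7.32% in the same classes and 5.79% in the flanks of reopened sites. At the sites that did not reopen it was found at 18.7% (14.6 to 23.5). The SOX motif ACAATG was found at 19.03% (17.7 to 20.4) of reopened, 12.8% of constantly open and 10.5% of quiescent-specific sites.

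Other motifs were no more frequent, or little more, at reopened sites than in the other classes. The NFI motif TTGGC was found at 46.9% (45.2 to 48.6) of reopened sites, below the 52.3% of constantly open and the 54.2% (52.9 to 55.5) of quiescent-specific sites, and above the 29.9% of their flanks. The TEAD motif GGAATG was found at 14.4%, 13.1% and 14.1% in these 3 classes, and the NFY motif CCAAT at 21.3%, 23.1% and 25.5%. The core of the CTCF motif, bound by the factor that marks chromatin boundaries, was found at 2.01% (1.57 to 2.54) of reopened, 2.39% of quiescent-specific and 5.53% of constantly open sites. The POU octamer ATGCAAAT was found at 2.89% of reopened and 2.42% of quiescent-specific sites. No palindromic or second E-box, AP-1 motif or SOX motif was present at 809 reopened sites (23.6%) and 88 of those that did not reopen (27.9%), against 47.3% of constantly open and 59.1% of quiescent-specific sites. Among reopened sites with CAGCTG, 29.6% held the second E-box and 11.2% the AP-1 motif, and among those without it 33.1% and 15.5%.

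Among the reopened distal sites, the E-box went with strength only to a small extent. In activated library 1, median fold enrichment was 4.29 at the 1824 sites without CAGCTG, 4.54 at the 1190 with 1 match and 4.91 at the 417 with 2 or more. In reactivated library 2 it was 6.06, 6.43 and 6.69. The quartiles overlapped widely in each library. In the strongest quartile of each library, 53.6% to 56.2% of sites held CAGCTG, and in the weakest 40.9% to 44.3%. The share was alike by place, at 45.6% in exons, 47.0% in introns and 46.9% between genes, each within the intervals of the others. By quartile of the difference of percentile, reactivated minus activated, it was 47.7%, 46.0%, 49.0% and 44.6%, with intervals that overlapped. That difference also moves with the length of the lists, so these shares do not show how the E-box goes with a change in accessibility.

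By position, 1671 reopened distal sites (48.7%, 95% interval 47.0 to 50.4) lay in introns, 1466 (42.7%) between genes and 294 (8.57%) overlapped an exon. All distal sites were split alike, with 50.4% in introns, 42.4% between genes and 7.23% at exons. The median distance to the nearest protein-coding TSS was 54378 bp, against 49260 bp over all distal sites. Repeats, as masked in the genome, covered a mean of 7.60% of the 200 bp windows. Reopened sites were spread over all 19 autosomes, from 3.70% of the distal sites of chromosome 5 to 5.55% of those of chromosome 9. Another site of the same class lay within 10 kb of 8.60% of reopened, 11.0% of quiescent-specific and 20.2% of constantly open distal sites. These classes held 3431, 5983 and 10286 sites. Neighbours lie closer in a larger class, so the shares do not compare clustering. Most reopened sites thus stood alone, as did most sites of those classes. With gaps of up to 10 kb, 3124 reopened sites formed no group, 143 pairs were found and 7 groups of 3. Among the groups was one next to Fezf2 (chr14:12388279-12397861), which was named after its number had been seen.

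Of the reopened distal sites, 3136 carried no H3K4me3, the histone mark of active promoters, which comes from libraries that the choice did not use. A peak in either state overlapped 295 of 3431 sites, or 8.60% (7.68 to 9.59). With peaks of a −log10 q of at least 10, the share was 14.4%, and 9.98% over all distal sites. With all peaks, the share was 6.65% of all distal sites, 19.6% (18.9 to 20.4) of constantly open and 2.39% (2.02 to 2.81) of quiescent-specific distal sites. It was 51.8% (48.0 to 55.5) of the promoter sites with the same pattern of peaks. Of the 295 marked sites, 195 were marked in both states, 68 in quiescent cells alone and 32 in activated cells alone. The last 2 numbers are 1.98% and 0.933% of the reopened sites, and over all distal sites these shares were 1.62% and 0.410%. With 1 library per state, these differences have no replicate check. Marked sites lay nearer to an annotated TSS, with 18.98% of them within 2 kb of one against 4.72% of the unmarked sites, and held a mean of 6.80 CpG dinucleotides in 200 bp against 3.08. CAGCTG was found at 39.3% of marked and 47.5% of unmarked sites. Their ATAC-seq strength was alike, with medians of 4.51 and 4.48 in activated library 1 and 6.64 and 6.65 in reactivated library 1.

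The strongest site marked in both states was an intronic one named for Slit2, a secreted guidance protein, with H3K4me3 fold enrichments of 4.66 in quiescent and 3.23 in activated cells. Its ATAC-seq values were 13.5 and 6.70 in activated and 20.0 and 22.0 in reactivated cells. A site 46329 bp upstream of Olig3, a bHLH factor of the neural tube, had H3K4me3 at 4.79 and 5.92. Among the sites marked in activated cells alone was one 65888 bp upstream of Dlx2, a homeobox factor of interneuron progenitors, with an H3K4me3 fold enrichment of 3.81 and ATAC-seq values of 7.09 and 5.56 against 10.4 and 9.06. The strongest of those marked in quiescent cells alone, named for Cpm, had H3K4me3 at 3.73 and ATAC-seq values of 9.75 and 6.70 against 17.9 and 17.3.

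By the window of 25 kb upstream to 10 kb downstream of a TSS, 714 reopened distal sites (20.8%) lay near a protein-coding gene (within 25 kb of a protein-coding TSS on either side, the share was 28.5%, against 32.5% of all distal sites), and 870 of 20807 genes, or 4.18%, had at least 1. The number of genes was 1670 without activated library 2, 1366 without quiescent library 2 and 515 with lists of equal length. Of these genes, 820 had 1 site, 48 had 2 and 2 had 3. The 2 were Trp53i11 and Eif4g3, a translation initiation factor gene. The 3 sites at Trp53i11 lay 13177 and 10495 bp upstream and 5315 bp downstream of the TSS. The one farthest upstream had fold enrichments of 6.80 and 6.83 in activated and 7.40 and 6.01 in reactivated cells, which overlapped. The one 10495 bp upstream had 4.66 and 3.02 against 3.71 and 3.04, which also overlapped. The downstream one had 4.91 and 4.63 against 3.62 and 2.83, both reactivated values being lower. It had H3K4me3 in activated cells alone, with a fold enrichment of 46.5, and lay 3672 bp from the nearest annotated TSS. The promoter of Trp53i11 carried H3K4me3 in both states. The promoters of the genes were mostly open throughout. Of the 870 genes, 535 (61.5%, 58.2 to 64.7) had a promoter peak in all 6 libraries, against 54.5% of all protein-coding genes, and 13 (1.49%, 0.798 to 2.54) had a promoter with the same pattern of peaks as the distal sites, against 0.928%. H3K4me3 was present in both states at the promoters of 69.4% (66.2 to 72.5) of the genes with a site and 61.0% of all genes.

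Among the 11 gene lists, the oligodendrocyte lineage had the highest share of genes with a reopened site, at 3 of 15 (20%, against 4.18% of all protein-coding genes). Per 100 distal sites in the windows, the Sox and neural stem cell list was highest, with 13.3 reopened sites against 6.82 for the oligodendrocyte lineage and 4.37 over all distal sites. The values of the 2 lists rest on 4 sites, 2 of them at Sox2, and on 3 sites. The 4.37 covers distal sites at any distance from a gene, not those in gene windows alone. Within 25 kb of a protein-coding TSS lay 28.5% of reopened sites against 32.5% of all distal sites. The oligodendrocyte genes with a site were Zfp488, a zinc finger factor of oligodendrocytes, Cnp, which encodes a myelin enzyme, and Sox8, a SoxE factor. No reopened site lay in the windows of Olig1, Olig2, Sox10, Pdgfra, Cspg4, Nkx2-2, Nkx6-2, Gpr17, Bcas1, Myrf, Mbp and Sirt2, the other genes of this list. The intronic Zfp488 site shown above had 6.53 and 3.82 in activated and 6.95 and 8.65 in reactivated cells, both reactivated values being higher. The Cnp site, at an exon 6978 bp downstream of the TSS, had 4.38 and 3.28 against 10.6 and 9.19. The Sox8 site held 3 palindromic E-boxes and had 3.76 and 3.43 against 4.85 and 3.81. Its nearest TSS was that of Lmf1. At the promoter of Zfp488, 3 of the 6 libraries had a peak.

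The lists held 20 reopened sites in all, of which 9 (45%, 95% interval 23.1 to 68.5) carried H3K4me3 in both states. Of all reopened sites, 5.68% carried it in both states and 8.60% in either. The 20 sites were taken from gene windows, whereas the shares of all reopened sites cover any distance from a gene. The 9 sites lay 1377 to 8016 bp from the nearest annotated TSS, with a median of 1864 bp, and the other sites at a median of 9680 bp. H3K4me3 fold enrichment in quiescent and activated cells was 38.6 and 32.5 at the upstream Sox2 site, 13.8 and 3.55 at the downstream one, 40.8 and 39.6 at the Vim site and 55.2 and 47.7 at the Jag1 site. The Insm1, Ccnd1, Nfia, Jun and Dusp4 sites were the others.

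Of the Sox and neural stem cell list, 3 of 17 genes (17.6%, against 4.18% of all protein-coding genes) had a site. Sox2, the factor that maintains neural stem cells, had 2. The one 9585 bp downstream of its TSS, in an annotated intron, had 5.89 and 4.49 in activated and 4.83 and 6.05 in reactivated cells, and the one 1427 bp upstream had 3.82 and 3.32 against 4.43 and 3.24. At both, the 2 states overlapped. Sox11, a factor of committed neuronal progenitors, had a site 14604 bp upstream with 3.85 and 3.14 against 9.99 and 6.12 and 2 palindromic E-boxes. By nearest TSS, Sox11 had 6 reopened sites of 42 distal sites (14.3%, against 4.37% of all distal sites). The site upstream of Vim, which encodes an intermediate filament of neural stem cells, was weak, with 2.33 and 1.99 against 2.99 and 2.57. The promoters of all 3 genes were open in every library.

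Of the proneural and Notch list, 3 of 20 genes (15%, against 4.18% of all protein-coding genes) had a site. Per 100 distal sites in the windows there were 4.62 reopened sites, near the 4.37 over all distal sites at any distance from a gene. The 3 genes were Insm1, a zinc finger factor of neuronal progenitors, Nrarp, a feedback inhibitor of Notch, and Jag1, a Notch ligand. The Insm1 site, at its exon, had 3.26 and 3.78 against 4.72 and 4.31, and the Jag1 site had 3.59 and 2.53 against 3.36 and 3.27, which overlapped. The Hes genes of the list, Hes1, Hes5 and Hes6, had no reopened site in their windows. With so few genes and a background of 4.18%, this says little. In the G1 cell cycle list, 2 of 18 genes (11.1%, against 4.18% of all protein-coding genes) had one. Per 100 distal sites in the windows of this list there were 5.56 reopened sites, which rests on 2 sites. Over all distal sites, at any distance from a gene, there were 4.37. The site 7662 bp upstream of E2f1, a driver of entry into S phase, had 3.71 and 5.85 in activated and 11.2 and 10.03 in reactivated cells. The site at Ccnd1, which encodes cyclin D1, had 3.56 and 2.45 against 3.77 and 2.89, which overlapped.

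In the other lists, 1 of 18 genes of EGF and FGF receptors and ERK feedback had a site (Dusp4, an ERK phosphatase), 1 of 11 interneuron genes (Gsx2), 2 of 18 BMP response and quiescence genes (Nfia and Id2), 1 of 12 astrocyte genes (Sparcl1), 1 of 10 AP-1 genes (Jun), 1 of 30 ephrin, semaphorin and plexin genes (Sema3c, with 2 sites) and 0 of 17 matrix and adhesion genes. The Dusp4 site had 4.38 and 5.42 in activated and 3.26 and 4.17 in reactivated cells. The Gsx2 site, 12256 bp upstream of this homeobox factor gene, had 3.85 and 3.85 against 5.87 and 7.98. Per 100 distal sites in the windows, these lists held from 0 (matrix and adhesion) to 5 (AP-1) reopened sites. Over all distal sites, at any distance from a gene, there were 4.37. The counts are small, and 10 to 30 genes per list give wide limits around the background of 4.18%.

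**Figure D5:**
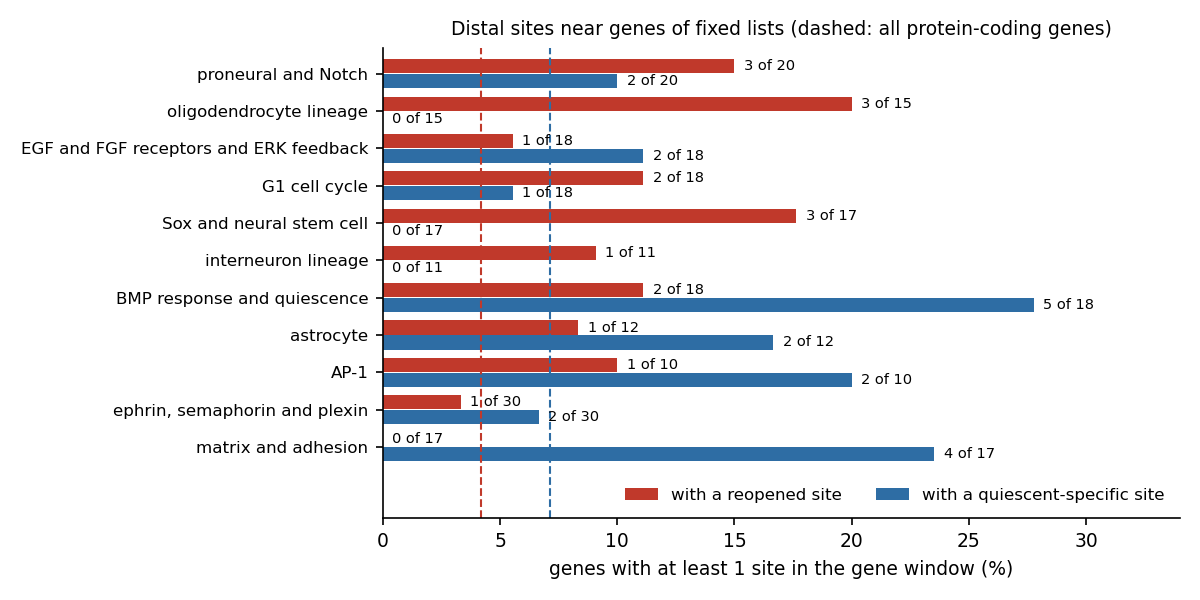
Share of the genes of each fixed list (y axis) with at least 1 reopened (red) or quiescent-specific (blue) distal site in the gene window (x axis, %), with the counts beside the bars and the shares over all protein-coding genes dashed (4.18% and 7.13%). The oligodendrocyte list stands at 3 of 15 for reopened sites and 0 of 15 for quiescent-specific sites, and matrix and adhesion at 0 of 17 and 4 of 17.

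By nearest protein-coding TSS, 2515 genes had at least 1 and 28 had 5 or more. Ntm, Smim15 and Tns3 had 7 each, of 74, 43 and 64 distal sites. At Plk2, which encodes a polo-like kinase, 6 of the 15 distal sites were reopened sites (40%), at 97793 to 352586 bp, the highest share among the 15 genes with the most sites, against 4.37% over all distal sites. These genes were named after their counts had been seen.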

How the data were processed

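Peak lists of 6 ATAC-seq and 2 H3K4me3 ChIP-seq libraries were used. The authors trimmed reads with Trim Galore 0.4.0, aligned them to mm10 with Bowtie2 2.2.5, removed duplicates with Picard 1.88 and SAMtools 1.3.1, reduced the reads of the reactivated libraries, and called peaks in each library with MACS at an FDR of 0.05. They called H3K4me3 peaks as broad against input. Fold enrichment as deposited is a ratio to the library's own background. The −log10 p and −log10 q were deposited per library and grow with depth. The deposited score is 10 times −log10 q and was not used.

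Peaks on chromosomes 1 to 19 were merged, and TSSs, exons and introns came from GENCODE M21. A site's value in a library was its highest peak. Motifs were exact matches on both strands of GRCm38.p6. The pileup and background were recovered from fold enrichment and −log10 p up to 40, to within 0.2% of −log10 p, for at least 99.98% of these peaks. Site classes, motif search and recovery were tested on simulated data.

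The members and gene lists were chosen with earlier results of these data known. Sites and genes were named by a fixed rule: the strongest sites, those with the most CAGCTG, the largest change, H3K4me3 or values next to a limit, the 5 genes with the most sites and up to 3 genes per list. Of the sites so named, the text gives a part. No tests were run, as the peaks chose the sites, and sites are not replicates. Python 3.11.15, numpy 2.4.6, pandas 2.3.3, scipy 1.17.1, pysam and matplotlib were used.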

Additional observations from a re-analysis of the deposited data

Results flagged for a closer look

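On chromosome X, which the choice of sites left out, 83 of 2961 merged sites (2.80%) had peaks in both activated and both reactivated libraries and in neither quiescent library, at any distance from a TSS. On the autosomes the share was 3.93%. The difference was not tested.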

How the results depend on the processing

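No paired analysis was possible because the results come from no test. Of 89 values recomputed under other settings, 52 stayed within the limit set for them, 37 moved beyond it and 0 reversed. A reversal was possible only for the median log2 ratio, since the other results are counts or shares, which have no sign. The limit was 1.5 times the value for numbers of sites and genes, and the spread or interval of the value for the rest. With peaks of a −log10 q of at least 10, there were 2263 reopened distal sites, 94.6% of activated-specific distal sites reopened (63.7% of all distal sites had a peak in both reactivated lists), 47.8% of reopened sites held CAGCTG and 14.4% had H3K4me3 (9.98% of all distal sites). With lists of equal length, there were 2208 sites near 515 genes, 56.2% of activated-specific distal sites reopened, 49.8% held CAGCTG, 11.2% had H3K4me3 (9.40% of all distal sites), 50.4% lay in introns and the median log2 ratio was 0.806. With a promoter window of 2 kb, 7.2% had H3K4me3. CAGCTG was found at 31.3% within 50 bp, 56.5% within 200 bp, 60.2% in the whole site and 43.1% about its middle. H3K4me3 in both states marked 5.68%, and 6.53% were covered by it over at least 50% of the site. Introns of protein-coding genes held 44.2% of sites, and 51.4% by the summit alone. As a difference of percentiles, which also moves with the length of the lists, the value from activated to reactivated was 19.7. By nearest TSS 2515 genes had a site, and 5000 within 100 kb. Leaving out 1 library at a time gave 3557 to 6590 sites, 74.3% to 95% reopened, 40.3% to 46.5% with CAGCTG, 7.81% to 9.76% with H3K4me3, 48.7% to 50% in introns, a median log2 ratio of 0.473 to 0.633 and 908 to 1670 genes. The highest counts, 6590 sites and 1670 genes, came without activated library 2, and 1366 genes without quiescent library 2. The rule makes fewer demands on a site when 1 library is left out, so a rise in counts is built into it. Why the counts rose most without activated library 2 was not tested. At a library's background, signals below a fold enrichment of 1.99 to 2.42 could not be detected.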
